A study of Danio rerio with 6 samples.

Results

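The miR-30 family was followed through the 6 arrays of a zebrafish ethanol study. Its members were taken by probe name: a probe was kept when the scanner file named it dre-miR-30 with any letter suffix or an asterisk and no further digit. This gave 6 of the 243 zebrafish microRNA (miRNA) probes, named dre-miR-30a, dre-miR-30b, dre-miR-30c, dre-miR-30d, dre-miR-30e and dre-miR-30e*, written below without the prefix. miR-30e* is the RNA from the opposite arm of the miR-30e hairpin. Each probe was printed as 4 spots, so the family filled 24 of the 5040 spots of an array. The rule used probe names alone, but the family was chosen with earlier results of these data known.

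The study exposed whole embryos to ethanol during early development and measured miRNAs at the end of the exposure. Embryos of the control group stayed in system water, and the treated groups were kept in 1% or 1.5% ethanol made up in system water, in each case between 4 and 24 hours after fertilisation. All embryos were collected at 24 hours after fertilisation, and their total RNA was labelled with Cy3, a fluorescent dye, and read on 1-colour arrays. There were 2 biological replicates per group, as the design text states, and no strain or genotype is given in the sources used here. The embryos came from dishes exposed together, and a whole-embryo sample cannot tell fewer cells of a type from less RNA per cell.

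miRNAs are short RNAs that lower the output of messenger RNAs whose sites pair with the miRNA's seed, the stretch near its 5′ end. The members miR-30a to miR-30e share a seed and are conserved among vertebrates. In zebrafish the family has been studied in early muscle, where it targets the Hedgehog signal transducer smoothened, in the formation of the liver and bile ducts, where miR-30a acts, and in vessel sprouting, where it targets the Notch ligand dll4. In Xenopus it takes part in making the embryonic kidney.

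The family had 5 named loci in the RefSeq annotation of the GRCz12tu assembly, which was used here for names and neighbours only. The genes mir30d and dre-mir-30b follow each other and lie within the spans of zfat and of an unnamed gene. The gene mir30e-2 is followed by a different unnamed gene, and dre-mir-30c lies within the span of that gene. The gene mir30a lies within another unnamed gene, with st3gal1l2 as its next neighbour. On the array, the probes for miR-30a, miR-30c and miR-30e carried zebrafish names alone. The probes for miR-30b, miR-30d and miR-30e* carried names of other species as well, and the miR-30e* probe was also named for mammalian miR-30a-3p. Members with near-identical sequence can bind each other's probes, so a signal belongs to a probe and may hold RNA of a related member.

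The level of each member was first set against the 336 empty spots and 40 BLANK spots of the same array. The median raw foreground of these spots was 98 to 127 intensity units, and their 95th percentile was 256 to 451. The median over zebrafish spots was 165 to 226, so a typical zebrafish probe lay within the range of the empty spots. A probe counted as above the empties of an array if its kept spots over that 95th percentile were no fewer than those at or under it. Spots that the quantification software had marked to be ignored, 4.64% to 11.7% of an array's spots, were left out.

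miR-30e was above the empty spots on 6 of 6 arrays, and the other 5 members were above them on 0 of 6. Across the array, 28 of 243 zebrafish probes, or 11.5%, were above the empty spots on all 6 arrays. Another 159 probes, or 65.4%, were above them on no array. Of 182 probes named only for worm and insect miRNAs, 20, or 11%, were above the empty spots on all 6 arrays, so this measure by itself does not show that a zebrafish RNA was bound. The assignment of the 6 members was the same with the 99th percentile as the limit, without the BLANK spots, with the ignored spots kept and after subtracting the local background.

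**Figure D1:**
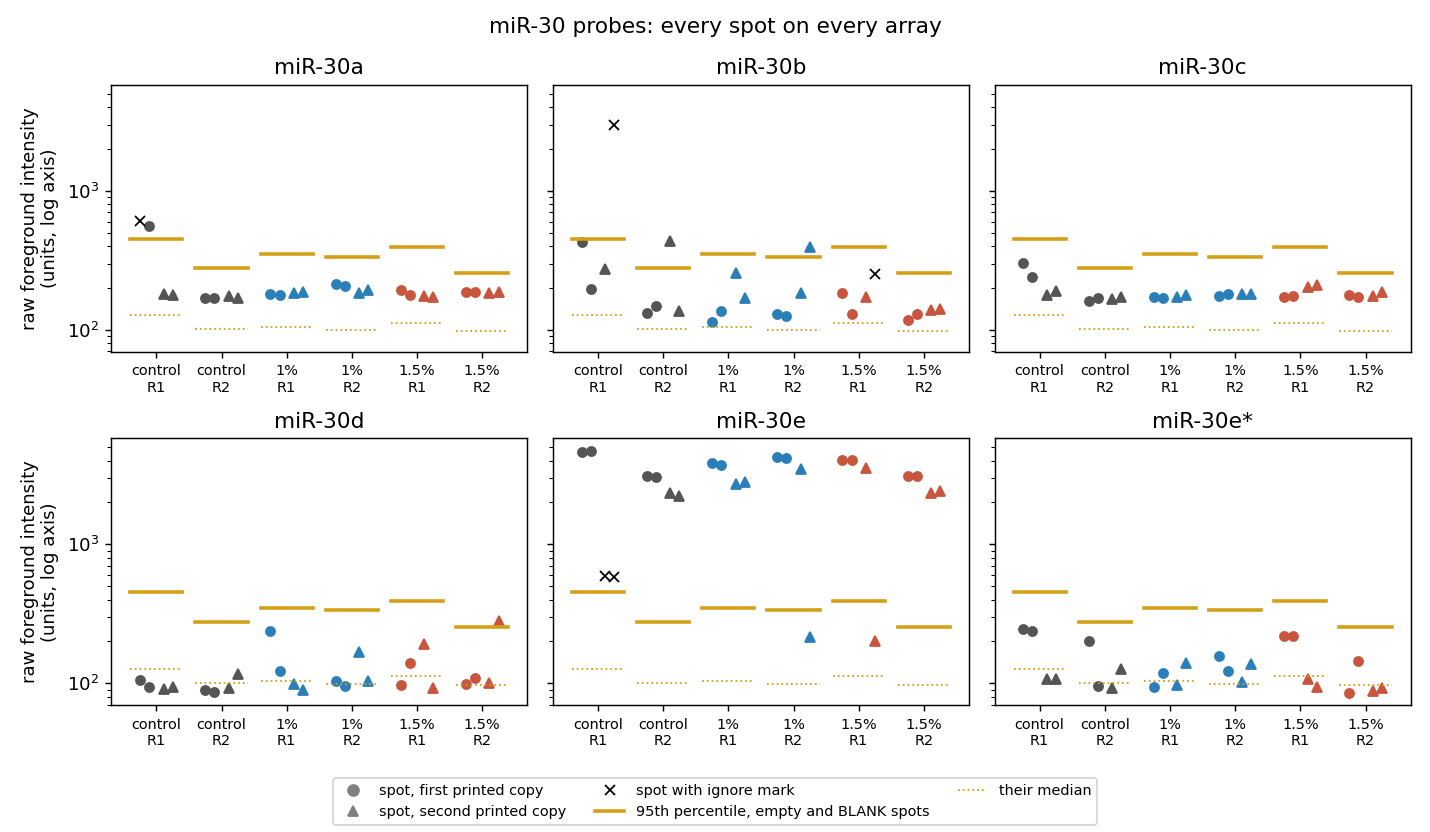
Raw foreground intensity (log axis) of each of the 4 spots of each miR-30 probe on the 6 arrays, 1 panel per member, with arrays ordered by ethanol dose; crosses are spots marked to be ignored, and the lines give the 95th percentile and the median of the empties, BLANK spots included, on each array. The kept miR-30e spots lie far above the lines except for 1 low spot on each of 2 ethanol arrays. The 2 ignored miR-30e spots, both on control replicate 1, read 588 and 585, not far above the 95th percentile of 451 on that array. The spots of the other 5 members lie mostly under the 95th percentile.

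miR-30e had a median foreground that was 36.8 and 26.6 times the median of the empty spots on the control arrays, 31.4 and 38.8 times it on the 1% arrays, and 33.7 and 28.3 times it on the 1.5% arrays. On every array its median lay over 100% of the kept empty and BLANK spots. Of its 22 kept spots on the 6 arrays, 20 were over the 95th percentile of the empties. The 2 exceptions were on ethanol arrays.

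The separate spots show where these exceptions lie. Each probe was printed as 2 copies in different print blocks, with 2 spots in each copy, one above the other. In the first copy, miR-30e read 4628 and 4728 on control replicate 1, and 3106 and 3048 on control replicate 2. The 1% arrays gave 3840 and 3722 for replicate 1, and 4245 and 4202 for replicate 2. The 1.5% arrays gave 4030 and 4036 for replicate 1, and 3111 and 3119 for replicate 2. The 2 spots of the first copy were thus close to each other on every array, and the raw readings of the 3 groups overlapped.

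The second copy of miR-30e was less even. It read 588 and 585 on control replicate 1, where both spots were marked to be ignored, and 2327 and 2217 on control replicate 2. On the 1% arrays it read 2737 and 2812 for replicate 1, and 3471 and 217 for replicate 2. On the 1.5% arrays it read 3521 and 203 for replicate 1, and 2358 and 2428 for replicate 2. The values of 217 and 203 are near those of empty spots, and neither of these spots carried the ignore mark. On the 5 arrays with a kept second copy, its brighter spot had 0.744 to 0.873 times the mean intensity of the first copy.

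The low spots were shared with the neighbours of miR-30e. In that block of the second copy, the lower spot row held 4 bright probes: miR-30e, miR-92b, a member of the miR-92 family that is widely expressed in embryos, and 2 probes of other names. On 1% replicate 2, all 4 probes read 2749 to 7303 in the upper row and 190 to 357 in the lower row. On 1.5% replicate 1, they read 3146 to 14520 in the upper row and 203 to 294 in the lower row. The ratio of lower over upper spot was 0.026 to 0.130 on 1% replicate 2 and 0.0151 to 0.0858 on 1.5% replicate 1. On the other 4 arrays it was 0.942 to 1.20, and in the first copy it was 0.896 to 1.09 over the 6 arrays. On control replicate 1, all second-copy spots of these probes were ignored, and both rows were dim. They read 450 to 588 in the upper row and 524 to 636 in the lower row, against 3133 to 19337 in the first copy. A ratio near 1 there thus does not mean that the signal was kept. The loss of signal in this row on those 2 arrays therefore touched every bright probe printed there and not miR-30e alone.

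**Figure D2:**
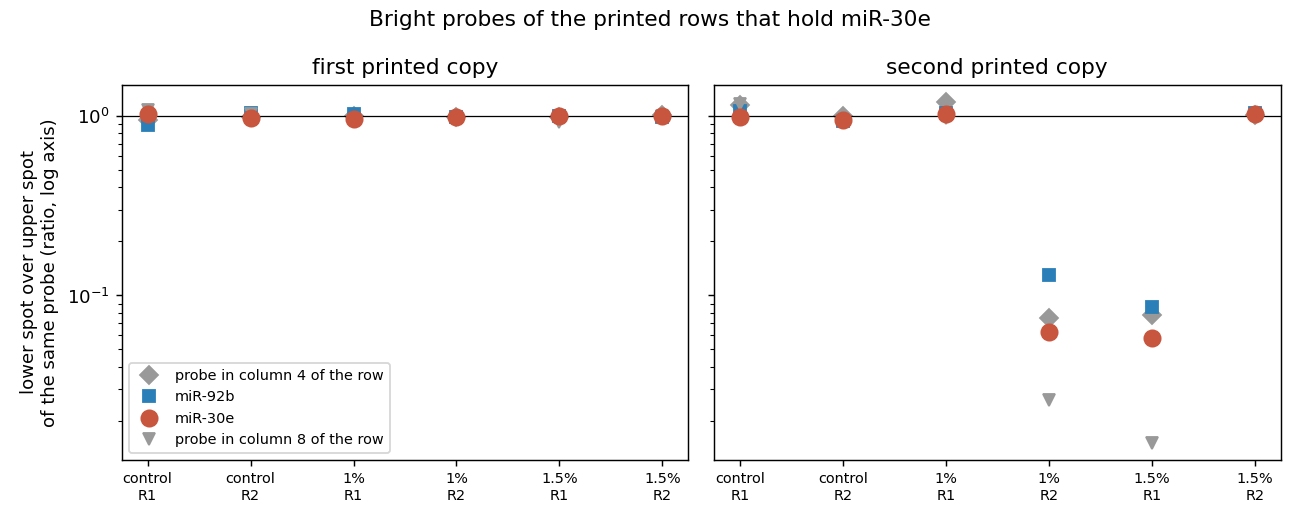
Intensity of the lower spot divided by that of the upper spot (log axis) for the 4 bright probes of the printed row that holds miR-30e, on the 6 arrays, in the first printed copy and in the second. In the second copy the ratio is 0.026 to 0.130 on 1% replicate 2 and 0.0151 to 0.0858 on 1.5% replicate 1, and all other ratios are 0.896 to 1.20. On control replicate 1 the second copy was dim in both rows, which this ratio does not show.

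For the comparison of groups, intensities were background corrected, set on the log2 scale, quantile normalised and averaged over a probe's kept spots. The normalised log2 level of miR-30e was 11.76 and 11.60 on the control arrays, 11.76 and 11.04 on the 1% arrays, and 10.64 and 11.60 on the 1.5% arrays. The 2 lowest arrays, 1.5% replicate 1 and 1% replicate 2, are those with the dim printed row. The value of control replicate 1 rests on the brighter first copy alone, since its second copy was ignored. The group means were 11.68 ± 0.11 in control, 11.40 ± 0.50 in 1% ethanol and 11.12 ± 0.68 in 1.5% ethanol (SD, n = 2 each).

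The log2 level of miR-30e in 1% ethanol differed from control by -0.28 (SE 0.38, 95% interval -1.19 to 0.63, limma adjusted p = 0.916), and the arrays of the groups overlapped. In 1.5% ethanol the difference from control was -0.56 (SE 0.38, 95% interval -1.48 to 0.35, limma adjusted p = 0.964), and both ethanol arrays were lower than both control arrays, as for 17.3% of all 243 probes in that comparison. The nearest arrays, 1.5% replicate 2 and control replicate 2, stood at 11.60 each after rounding. Between 1.5% and 1% ethanol it was -0.28 (95% interval -1.20 to 0.63, limma adjusted p = 0.911). Without 1% replicate 2 the difference at 1% ethanol was 0.075, and without 1.5% replicate 1 the difference at 1.5% ethanol was -0.083. The SD between replicates was 0.11 in control, 0.50 in 1% ethanol and 0.68 in 1.5% ethanol. The difference of -0.56 was larger than the SD of the control and 1% groups and smaller than that of the 1.5% group. Each 95% interval given here included 0. The intervals still include changes of over 1 log2 unit downward.

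Leaving out the low spots moved these values. This step, chosen after the data were seen, dropped any kept spot more than 1 log2 unit under the median of its probe on that array. The log2 levels of miR-30e were then 11.76 and 11.60 on the control arrays, 11.76 and 12.16 on the 1% arrays, and 11.65 and 11.60 on the 1.5% arrays. The difference from control turned to 0.28 in 1% ethanol (SE 0.19, 95% interval -0.20 to 0.75, limma adjusted p = 0.877). In 1.5% ethanol it was -0.06 (95% interval -0.53 to 0.42, limma adjusted p = 0.972).

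The first printed copy, which has no dim row, was also read by itself. miR-30e then had log2 levels of 11.81 ± 0.07 in control, 12.15 ± 0.23 in 1% ethanol and 11.76 ± 0.10 in 1.5% ethanol (SD, n = 2 each). Both 1% arrays, at 11.99 and 12.31, were higher than both control arrays, at 11.76 and 11.86. The share of all probes whose arrays lay apart in this copy was not counted. The miR-30e difference from control was 0.34 in 1% ethanol (95% interval -0.16 to 0.84, limma adjusted p = 0.961) and -0.05 in 1.5% ethanol (95% interval -0.55 to 0.45, limma adjusted p = 0.956). The lower mean of miR-30e in ethanol was thus not seen at 1% and was near 0 at 1.5% once the dim spots were out of the mean. In the second copy alone, where control replicate 1 had no kept spot, the differences were -0.70 and -0.88 (SE 1.09 for each).

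**Figure D3:**
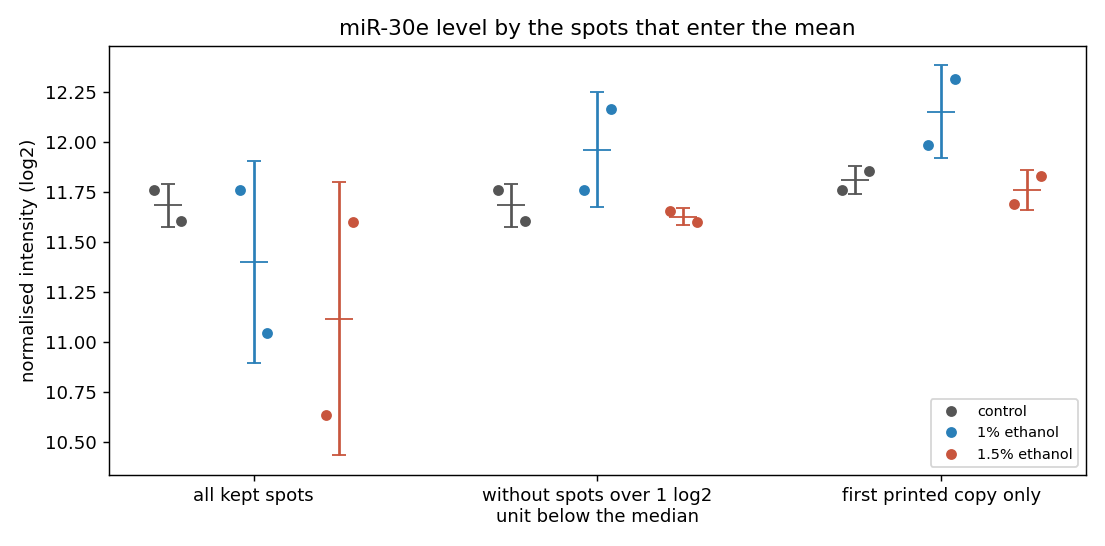
Normalised log2 level of miR-30e in control, 1% and 1.5% ethanol, as 2 arrays per group (points) with their mean and SD, for all kept spots, with low spots left out, and for the first printed copy. With all kept spots the means were 11.68, 11.40 and 11.12 in order of dose, and with low spots left out 1% ethanol was the highest group.

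The arrays were paired on slides, as the image and experiment names in the file headers show, and each slide held arrays of 2 groups. On the slide with 1% replicate 1 and control replicate 1, miR-30e differed by -0.0019 on the log2 scale, ethanol minus control. On the slide with 1.5% replicate 1 and control replicate 2 it differed by -0.97, with the dim row on the ethanol array. On the slide with both second ethanol replicates it differed by 0.55, 1.5% minus 1%, with the dim row on the 1% array. With slide as a block, the differences were -0.51 for 1% over control, -0.46 for 1.5% over control and 0.05 for 1.5% over 1% (SE 0.43 for each). These estimates combine all 3 slides, 2 of which held an array with the dim row.

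Among the 28 zebrafish probes above the empty spots on all 6 arrays, the SD of miR-30e over the 6 arrays, 0.458 on the log2 scale, stood against a median of 0.273, and 7 probes varied more. Low spots of the same kind were 16 of the 604 kept spots of these 28 probes, or 2.65%, in 9 probes. The second copy was dimmer than the first in 22 of the 28 probes, with a median log2 difference of -0.148, second minus first.

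Other probes were ranked by how closely they followed miR-30e over the 6 arrays, as the root mean square difference of centred log2 levels among the 27 other probes above the empty spots. miR-92b was nearest at 0.199, followed by miR-34c at 0.295, miR-196b at 0.296, let-7b at 0.311 and miR-737 at 0.362. miR-92b shares the print blocks of miR-30e and has its low spot on the same 2 arrays. With low spots left out, the nearest were miR-155 at 0.105, miR-430b at 0.115, miR-153c at 0.129, miR-9 at 0.133 and miR-1 at 0.150. None of the first 5 was among the second 5. These values are descriptions over 6 arrays that share their normalisation.

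miR-30d lies beside miR-30b in the genome, and its spots read like empty spots. Its median foreground lay over 11.9% to 64.0% of the empty and BLANK spots, depending on the array. The 4 spots read 106, 94, 91 and 94 on control replicate 1, and 90, 87, 92 and 116 on control replicate 2. On the 1% arrays they read 237, 122, 99 and 90 for replicate 1, and 104, 95, 168 and 104 for replicate 2. On the 1.5% arrays they read 97, 139, 193 and 93 for replicate 1, and 99, 110, 101 and 279 for replicate 2. Every ethanol array held at least 1 spot over the control spots, while other spots of the same arrays stayed with them.

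The normalised log2 intensity of the miR-30d probe was 6.57 and 6.68 on the control arrays, 7.04 and 6.93 on the 1% arrays, and 6.96 and 7.16 on the 1.5% arrays. The ethanol arrays did not overlap with the control arrays at either dose. Over all 243 probes, the arrays lay apart in the higher direction for 20.6% at 1% ethanol and for 11.5% at 1.5% ethanol. The log2 intensity differed from control by 0.36 in 1% ethanol (SE 0.17, 95% interval -0.04 to 0.77, limma adjusted p = 0.874). In 1.5% ethanol it differed by 0.43 (SE 0.17, 95% interval 0.03 to 0.84, limma unadjusted p = 0.0391, adjusted p = 0.932). Within a slide, the miR-30d difference was 0.47 for 1% ethanol minus control and 0.28 for 1.5% ethanol minus control. It did not pass the threshold at either dose, and these values are differences in intensity within the range of the empty spots, not fold changes of the RNA.

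miR-30b read 430, 198 and 276 in the kept spots of control replicate 1, with a spot of 2982 that was marked to be ignored, and 132, 148, 435 and 136 on control replicate 2. On the 1% arrays it read 114, 136, 256 and 169 for replicate 1, and 131, 126, 184 and 395 for replicate 2. On the 1.5% arrays it read 185, 129 and 172 in the kept spots of replicate 1, beside an ignored spot of 251, and 117, 130, 140 and 141 for replicate 2. By raw reading the highest kept spots, 435 and 430, were on the control arrays, followed by 395 on 1% replicate 2. After normalisation these 3 spots stood at 8.91, 8.33 and 8.55 on the log2 scale, so the 1% spot came second. Of the 22 kept miR-30b spots, 2 were over the 95th percentile of the empties, 1 on control replicate 2 and 1 on 1% replicate 2.

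The normalised log2 intensity of the miR-30b probe was 7.72 and 7.51 on the control arrays, 7.28 and 7.56 on the 1% arrays, and 7.22 and 7.05 on the 1.5% arrays. It differed from control by -0.20 in 1% ethanol (SE 0.19, limma adjusted p = 0.874), with overlapping arrays. In 1.5% ethanol it differed by -0.48 (SE 0.19, limma unadjusted p = 0.0402, adjusted p = 0.932). An unadjusted limma p under 0.05 was met by 4.94% of all 243 probes in that comparison. Both 1.5% arrays were lower than both control arrays, as for 17.3% of all probes. With the median over spots in place of the mean, the difference at 1.5% ethanol was -0.20. Within a slide, the miR-30b difference was -0.44 for 1% ethanol minus control and -0.29 for 1.5% ethanol minus control. The probes for the neighbours miR-30b and miR-30d thus had differences of opposite sign at 1.5% ethanol, and neither passed the threshold. Both probes were above the empty spots on 0 of 6 arrays, so these are differences in intensity and not fold changes of the RNAs.

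The probes for miR-30a and miR-30c stayed within narrow limits on most arrays. miR-30a read 169 to 215 in its kept spots on 5 arrays, and 559, 181 and 177 on control replicate 1. miR-30c read 161 to 209 on the same 5 arrays, and 303, 239, 179 and 189 on control replicate 1. Their medians lay over 69.3% to 91.4% of the empty and BLANK spots for miR-30a and over 73.4% to 90.1% for miR-30c. Both thus sat in the upper part of the range of the empty spots, on control and ethanol arrays alike.

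The normalised log2 intensity of the miR-30a probe was 7.54 ± 0.14 in control, 7.60 ± 0.08 in 1% ethanol and 7.53 ± 0.14 in 1.5% ethanol (SD, n = 2 each). The miR-30c probe stood at 7.48 ± 0.03 in control, 7.51 ± 0.05 in 1% ethanol and 7.52 ± 0.07 in 1.5% ethanol (SD, n = 2 each). For miR-30a the differences from control were 0.06 in 1% ethanol and -0.01 in 1.5% ethanol (SE 0.17 for each). For miR-30c they were 0.03 and 0.04 (SE 0.15 for each). For both probes the arrays of the ethanol groups overlapped with control, and limma adjusted p-values were 0.937 to 0.979.

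The probe for miR-30e* read 85 to 247 over the 6 arrays, and 0 of its 24 kept spots were over the 95th percentile of the empties. Its median lay over 21.0% to 75.7% of the empty and BLANK spots. That of the probe named for the opposite arm, miR-30e, lay over all of them on each array. The log2 intensity of the miR-30e* probe was 6.84 ± 0.15 in control, 6.80 ± 0.04 in 1% ethanol and 6.78 ± 0.05 in 1.5% ethanol (SD, n = 2 each). The differences from control were -0.04 in 1% ethanol and -0.06 in 1.5% ethanol (SE 0.16 for each, limma adjusted p = 0.949 and 0.977).

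Over the family, 0 of 6 probes passed the adjusted threshold of 0.05 in limma in each of the 3 comparisons. Over all 243 probes, 0.412% passed for 1% ethanol over control, 0% for 1.5% ethanol over control and 0% for 1.5% over 1% ethanol. At an unadjusted p under 0.05, 0 members passed at 1% ethanol, against 6.17% of all probes. At 1.5% ethanol 2 members passed, miR-30b and miR-30d, against 4.94% of all probes. Between the doses 0 members passed, against 7.41% of all probes.

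Differences of the 6 members went both ways. At 1.5% ethanol miR-30e, miR-30b and miR-30d lay further from 0 than the median size of a log2 difference over all probes, 0.153. Without low spots the miR-30e difference was -0.06. The median log2 difference of the members was -0.0078 for 1% ethanol over control, beside 0.0020 over all probes. For 1.5% ethanol over control it was -0.04, beside 0.0089 over all probes, and for 1.5% over 1% ethanol it was -0.05, beside -0.05. The first and second of these comparisons share the control arrays. Of the 6 members, 3 were above 0 for 1% ethanol over control, beside 50.6% of all probes. For 1.5% ethanol over control 2 were above 0, beside 51% of all probes, and for 1.5% over 1% ethanol 2 were, beside 43.6%.

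At 1% ethanol the arrays lay apart from control in the higher direction for 1 of 6 members, miR-30d, beside 20.6% of all probes, and in the lower direction for 0, beside 16.9%. At 1.5% ethanol they lay apart in the higher direction for 1 of 6, miR-30d, beside 11.5% of all probes, and in the lower direction for 2, miR-30b and miR-30e, beside 17.3%. For miR-30e this held only with the dim spots in the mean. With low spots left out, its 1.5% arrays, at 11.65 and 11.60, overlapped with the control arrays, at 11.76 and 11.60. Between the doses 0 members were higher, beside 15.2% of all probes, and 1, miR-30b, was lower, beside 16.5%.

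**Figure D4:**
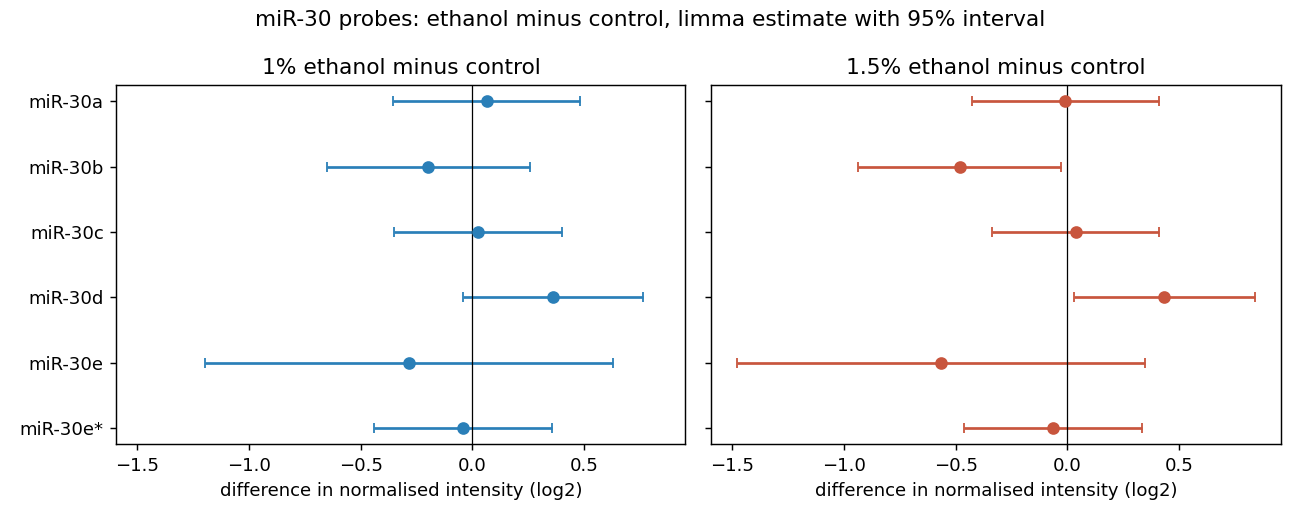
Log2 difference from control of each miR-30 probe in 1% and in 1.5% ethanol, as points with 95% intervals from limma; 5 of the 6 probes were not above the empty spots in any group. Every interval includes 0 except those of miR-30b and miR-30d at 1.5% ethanol, and 0 of 6 passed the adjusted threshold in either comparison.

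The arrays also held 5 probes named for miR-30 members of other species only. Their normalised log2 intensities ranged from 6.58 to 8.54 over the 6 arrays. As examples chosen after their values were seen, the human miR-30c probe lay between 7.42 and 7.85, and the mouse miR-30e probe between 7.11 and 8.54. The mouse miR-30e probe was above the empty spots on 1 array, 1.5% replicate 1, and the other 4 were above them on 0 of 6. By contrast, the zebrafish miR-30e probe lay between 10.64 and 11.76. Probe sequences were not available here, and why these miR-30e probes differ was not tested.

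The miR-30 probes were also read under other ways of processing. Over 20 settings and 3 comparisons, miR-30e passed the adjusted limma threshold in 0 of 60 tests, and 0 calls were made for the other members in the settings that gave them a value. The sign of the miR-30e difference, in contrast, depended on how its spots were combined: at 1% ethanol it was below 0 with the mean of all kept spots and above 0 with the median over spots, where it was 0.23.

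**Figure D5:**
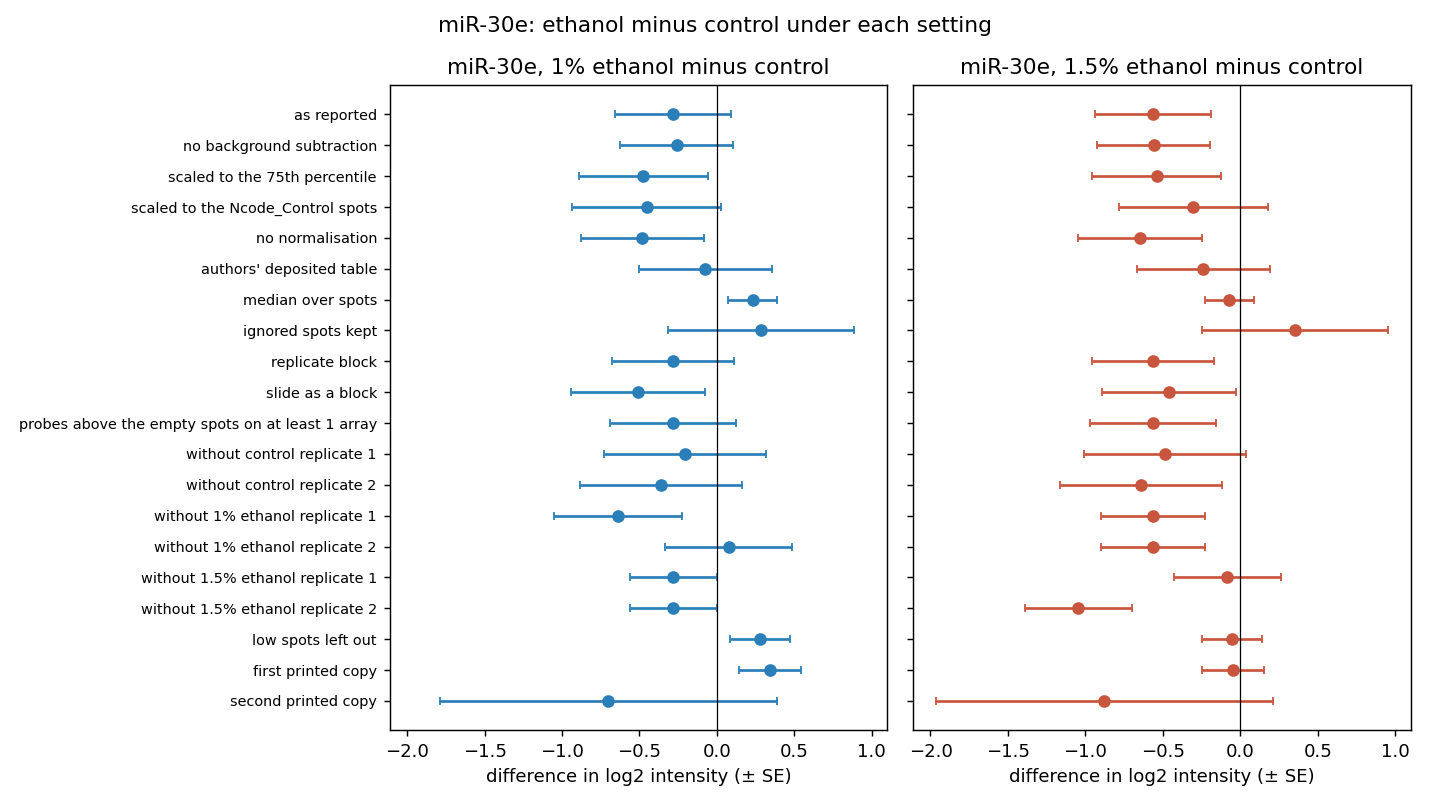
Log2 difference of miR-30e with its SE, ethanol minus control, for 1% and 1.5% ethanol under each setting. At 1% ethanol the values lie between -0.70 and 0.34, on both sides of 0, and none passed the adjusted threshold.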

How the data were processed

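miRNA was measured on 6 arrays of whole embryos, 2 in each of 3 groups. Per the file headers, the deposited scanner files hold the raw foreground and local background intensity of each spot, not background subtracted, in 1 channel. Per the file headers, the ignore mark is set by the quantification software and was used as deposited. The authors' deposited table holds log2 values. Averaging the log2 foreground of kept spots of 100 or more and subtracting the mean of the Ncode_Control spots gave 1438 of its 1440 values to within 0.001. It served as an alternative. The files' miRNA names were kept.

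Intensities were corrected by normexp (offset 50), set on the log2 scale, quantile normalised over the miRNA spots, and averaged over a probe's kept spots. The 3 groups were fitted together in limma 3.58.1 under R 4.3.3. The two-sided p-values were adjusted by the Benjamini-Hochberg method over 243 zebrafish probes, with a threshold of 0.05. Precision is limited by having 6 arrays. The SE of a log2 difference had a median of 0.211, and the smallest two-sided p that exact permutation allows between groups of 2 is 0.333. Alternatives changed the background correction, scaling, spot summary, ignored spots, dim probes, slide and replicate blocks, and left out each array. Named probes were all family members, the 5 probes nearest to miR-30e, other species' miR-30 probes, and the top member of 4 tissue lists. The members and lists were chosen with earlier results of these data known.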

Additional observations from a re-analysis of the deposited data

How the results depend on the processing

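Leaving out the low spots and reading each printed copy alone were added after the data were seen. The number of zebrafish probes past the threshold was 1 for 1% ethanol over control, 0 for 1.5% ethanol over control and 0 for 1.5% over 1% ethanol. With scaling to the Ncode_Control spots and with slide as a block these counts were 3, 2 and 4. With the authors' deposited table they were 0, 1 and 3. The count for 1% ethanol was 0 without normalisation, with the median over spots, without low spots and in the second copy, and 2 in the first copy. Between the doses it was 2 without normalisation and 1 in the first copy. Leaving out 1 array at a time gave 0 to 3 for 1% ethanol and 0 to 3 between the doses. No miR-30 member was among these probes in any setting.

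The log2 differences listed next changed sign in some settings, and values from leaving out arrays are given beside them whether or not the sign changed. The cause was not tested. For miR-30e at 1% ethanol they were 0.34 in the first copy, 0.29 with ignored spots kept, 0.28 without low spots and 0.23 with the median over spots, and -0.64 to 0.075 leaving out 1 array. For miR-30e at 1.5% ethanol it was 0.35 with ignored spots kept, which brings back the dim second copy of control replicate 1. The sign did not change without 1.5% ethanol replicate 2, at -1.05, or without 1.5% ethanol replicate 1, at -0.08. Between the doses miR-30e had 0.068 with ignored spots kept, 0.15 with Ncode_Control scaling and 0.047 with slide as a block, and -0.76 to 0.20 leaving out 1 array.

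The other sign changes were in members within the range of the empty spots. For miR-30a at 1% ethanol the values were -0.32 in the first copy, -0.018 with ignored spots kept and -0.051 with slide as a block, and -0.032 to 0.16 leaving out 1 array. At 1.5% ethanol miR-30a had 0.20 in the authors' deposited table, 0.18 with the median, 0.16 with Ncode_Control scaling and 0.17 in the second copy, and -0.11 to 0.089 leaving out 1 array. Between the doses miR-30a had 0.071 with Ncode_Control scaling and 0.0066 with slide as a block, and -0.17 to 0.025 leaving out 1 array. For miR-30b the values at 1% ethanol were 0.013 in the authors' deposited table and 0.034 in the second copy, and between the doses 0.095 in the first copy. For miR-30c the first copy gave -0.092 at 1% ethanol, -0.11 at 1.5% ethanol and -0.020 between the doses. For miR-30c, slide as a block gave -0.026 at 1% ethanol. The miR-30c values without normalisation were -0.13 at 1.5% ethanol and -0.17 between the doses, and with 75th percentile scaling they were -0.025 and -0.074. Leaving out 1 array gave miR-30c -0.011 to 0.062 at 1% ethanol, -0.012 to 0.087 at 1.5% ethanol and -0.037 to 0.061 between the doses. For miR-30d between the doses the values were -0.24 in the first copy, -0.27 without normalisation and -0.17 with 75th percentile scaling, and -0.028 to 0.17 leaving out 1 array.

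For miR-30e* at 1% ethanol the values were 0.097 in the authors' deposited table, 0.015 with the median, 0.20 without normalisation, 0.20 with 75th percentile scaling, 0.22 with Ncode_Control scaling, 0.20 in the second copy and 0.0070 with slide as a block, and -0.15 to 0.065 leaving out 1 array. At 1.5% ethanol miR-30e* had 0.39 in the authors' deposited table and 0.096 with Ncode_Control scaling, and -0.17 to 0.042 leaving out 1 array. Between the doses miR-30e* had 0.30 in the authors' deposited table and 0.23 in the first copy, and -0.055 to 0.0093 leaving out 1 array. The differences from control of miR-30d at both doses, and of miR-30b at 1.5% ethanol, kept their sign in all settings that gave them a value. The settings reread the same arrays, so a kept sign is not independent support, and both probes lay within the range of the empty spots. A test restricted to probes that were above the empties of 1 array or more kept miR-30e alone of the family.

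The labels number the replicates alike in each group, but not every pair of samples with the same number deviated together. The correlations of their deviations were -0.03 for 1% ethanol and control, 0.27 for 1.5% ethanol and control, and -0.04 for the ethanol groups. With the replicate block, miR-30e kept its differences, with limma adjusted p-values of 0.878 at 1% ethanol and 0.924 at 1.5% ethanol, and 1 probe passed the threshold for 1% ethanol over control.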

Other observations

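The miRNAs of tissues in which miR-30 is studied were read on the same arrays. Of 9 vessel miRNAs, miR-23a and miR-218a were above the empty spots on all 6 arrays, and of 6 muscle miRNAs only miR-1 was. Of 6 liver and gut miRNAs it was miR-203a, which is better known from skin, and of 8 cilia and kidney miRNAs it was miR-34c. In all 4 lists 0 members passed the adjusted limma threshold in any comparison. The median log2 difference from control was -0.20 at 1% and -0.06 at 1.5% ethanol for vessel, and 0.08 and 0.03 for muscle. It was -0.15 and -0.09 for liver and gut, and 0.09 and -0.11 for cilia and kidney, beside 0.0020 and 0.0089 over all probes. These medians include probes that were above the empties of no array: 6 of the 9 vessel, 3 of the 6 muscle, 2 of the 6 liver and gut and 5 of the 8 cilia and kidney probes. The brightest vessel probe, miR-218a, differed from control by -0.99 at 1% ethanol and -0.05 at 1.5% ethanol. The brightest muscle probe, miR-1, differed by 0.29 and -0.03. miR-203a differed by -1.48 and 0.22, and miR-34c by -0.19 and -0.20. For these 4 probes the limma adjusted p-values were 0.755 to 0.977. Over the 6 arrays the log2 level ranged from 11.05 to 14.43 for miR-203a and from 14.29 to 15.97 for miR-218a. How far single arrays made up these differences was not tested.

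The authors' deposited table gave the miR-30d probe larger log2 differences from control, 0.80 at 1% ethanol and 0.89 at 1.5% ethanol, than the 0.36 and 0.43 of the normalised intensities, with limma adjusted p-values of 0.778 and 0.765. That table averages raw foreground, without background correction, and is scaled to the Ncode_Control spots. The same scaling of background-corrected intensities, without a spot minimum, gave 0.63 and 0.68. These settings thus differ in both background correction and spot minimum, and the part of each in the gap was not tested. The table also uses spots of 100 or more only. Of the 4 kept miR-30d spots of an array, 2 and 3 reached 100 on the 1% arrays and 2 and 3 on the 1.5% arrays, against 1 and 1 on the control arrays.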
